A study of Rattus norvegicus with 11 samples.

Results

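During the conversion of rat embryonic stem cells to hypoblast stem cells, 43 of 14506 measured genes formed a sharp peak at day 7 in feeder-free culture and make up the set described here. A gene entered when its feeder-free day 7 mean lay at least 2 on the log2 scale above day 0 and above the day 17 mean. In all 61 genes passed that threshold, and 18 of them were left out by a list of names and families. That list holds trophoblast regulators, steroid and coagulation genes, serpins, integrins, collagens and cathepsins. It also names the placental prolactins Prl2a1 and Prl7a3, the collagenase Mmp1 and the cadherin Cdh5. The genes were thus chosen by their measured values on the feeder-free arrays of days 0, 7 and 17, which are given below as a description, with no test. The 4 arrays of the feeder arm took no part in the rule, so the tests below are made on them.

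The study followed the rat stem cell line DAc2 on 11 Affymetrix Rat Gene 1.0 ST arrays as it was turned into the cells that the labels call cHypoSCs. The hypoblast, or primitive endoderm, is the layer of the early embryo from which the extraembryonic endoderm of the yolk sac forms. The feeder-free arm began from stem cells on laminin in a medium with 3 µM CHIR99021, a GSK3 inhibitor, 2 µM PD0325901, a MEK inhibitor, and 5 ng/mL human BMP4. It was sampled with 1 array on day 0 and with 2 arrays each on day 7, on day 17 and on day 32. The feeder arm began from stem cells on mouse embryonic fibroblasts, with 3 µM CHIR99021, 0.5 µM PD0325901 and no BMP4 named, and gave 1 array on each of the 4 days. In both arms conversion took place in a medium for rat multipotent adult progenitor cells, with LIF, EGF, PDGF and 2% serum. All arrays thus come from 1 stem cell line, and the labels do not state whether fibroblasts were still present after day 0. Paired feeder-free arrays are labelled as biological replicates, but separate cultures are not named, so p values may measure technical spread alone.

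As background, the genes peaking at day 7 do not belong to 1 pathway. Several are known from the rodent placenta, where trophoblast cells secrete hormones of the prolactin family, make envelope proteins of captured retroviruses that fuse cells, and degrade matrix as they invade. Fosl1 encodes a subunit of AP-1, a dimer of Fos and Jun family proteins that binds a short DNA motif and is induced by growth factor signalling through ERK. Others act at the cell surface, in the matrix, in transport or in the cytoskeleton.

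All values are log2 expression levels, and a difference of 1 is a doubling. Background was gauged from 1240 olfactory and vomeronasal receptor genes, which few cells outside the sensory organs express, and 95% of their values lay below 8.10, here called the receptor level. Below that level a change is understated. The array median was 8.97 on all 11 arrays, and feeder-free replicates correlated at 0.997 to 0.998 across genes. Of 6 pluripotency markers all lay above background at day 0, and their mean fell from 14.03 to 10.52 and 10.56 at day 17 in the feeder-free arm. That of 7 hypoblast markers went from 9.42 to 13.77 on both day 17 arrays. In the feeder arm the hypoblast mean was 9.16 at day 0, 10.62 at day 7 and 13.39 at day 17, against 13.15 and 13.28 on the feeder-free day 7 arrays. The pluripotency mean there was 13.05 at day 0, 13.01 at day 7 and 10.29 at day 17, against 11.45 and 11.62 at feeder-free day 7. In the feeder tests described below none of the 6 was called against day 0, and all 6 were higher at day 7 than at day 17. The feeder day 7 array thus kept the pluripotency level of day 0. From day 0 to day 7, 1786 genes differed by at least 1 without feeder cells and 575 on them. In these bulk samples fewer cells of a type and less RNA per cell cannot be told apart.

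In the feeder-free arm the peak stood out on every array. For all 43 genes both day 7 arrays lay above the other 5 feeder-free arrays. The members' median level was 8.23 at day 0, 11.49 at day 7, 8.52 at day 17 and 8.28 at day 32. At day 0, 19 of the 43 lay at or below the 8.10 that bounds the receptor genes, and by the day 7 mean none did. Of all 11 arrays the highest was a feeder-free day 7 array in 38 genes. The rise from day 0 ranged from 2.02 to 6.29 with a median of 2.95, and the fall to day 17 from 2.02 to 3.92, also with a median of 2.95. These sizes follow from the choice of the genes, and so in large part do the counts of 43 and 38 above. For those counts the shares over all genes were not computed. Day 7 replicates differed by a median of 0.17 over the members. In 6 genes, Ceacam9, Prl3b1, Plcd4, Prl7b1, Apbb1ip and Fndc3c1, they differed by more than 0.5, and by the most, 1.10, in Prl3b1.

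**Figure D1:**
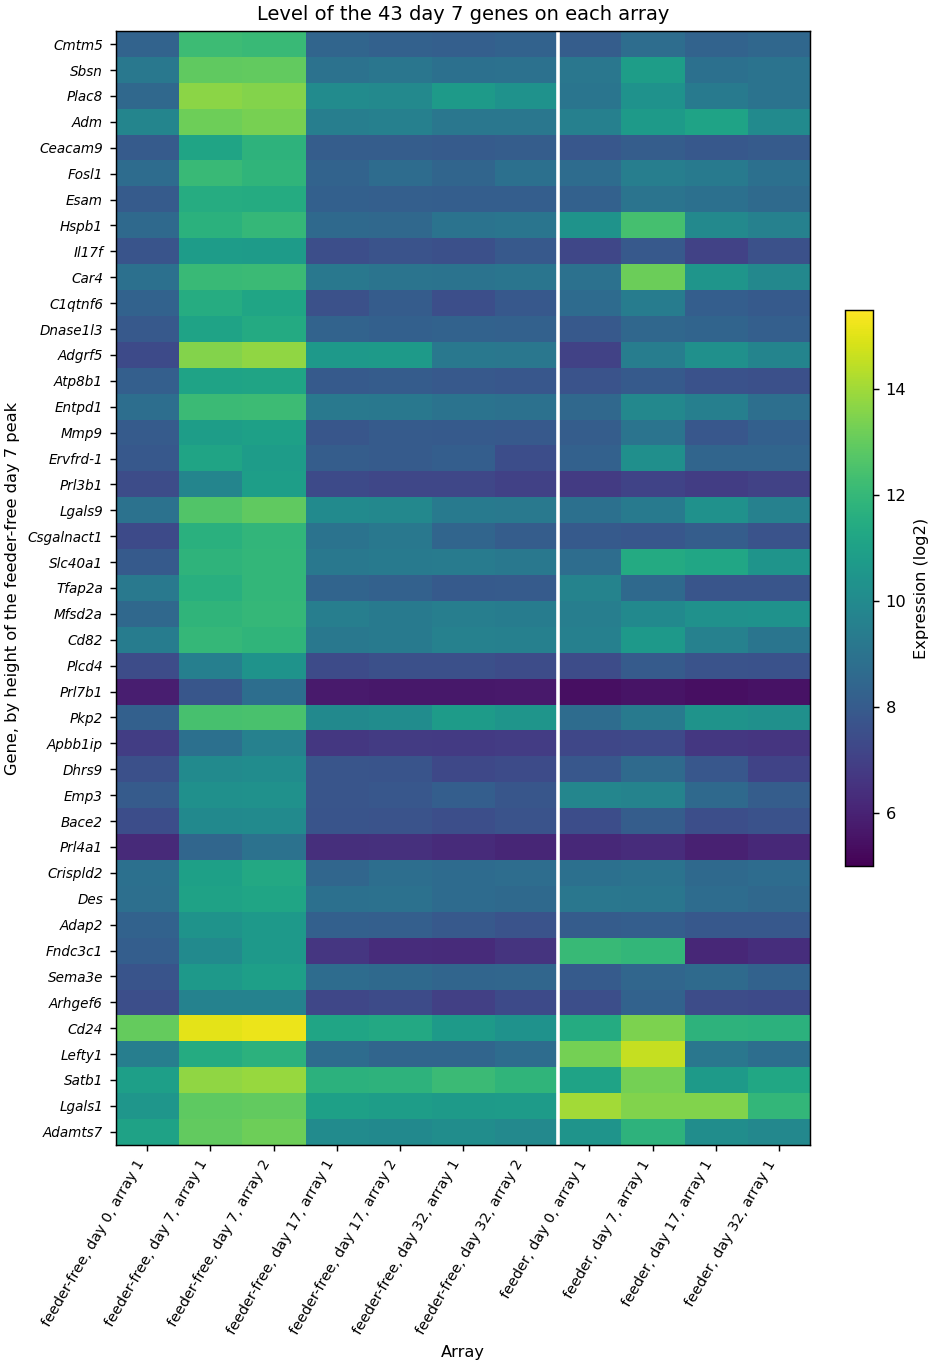
Log2 expression of the 43 genes (rows, ordered by the height of the feeder-free day 7 peak) on each of the 11 arrays (columns, feeder-free left and feeder right of the white line). Both feeder-free day 7 columns are brighter than the other feeder-free columns in all 43 rows, whereas the feeder day 7 column is above the feeder-free day 7 mean in 5 rows.

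Genes just inside the threshold were Adamts7 and Lgals1, each 2.02 above the nearer of days 0 and 17, and Satb1 at 2.05. Just outside lay Cmklr2 at 1.98, Sftpc at 1.97 and Nostrin at 1.92. At 1.5 in place of 2 the rule would take 83 genes, at 3 it would take 11. The 11 were Cmtm5, Sbsn, Plac8, Adm, Ceacam9, Fosl1, Esam, Hspb1, Il17f, Car4 and C1qtnf6.

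The feeder arm asked whether the same genes peak when the stem cells come from a feeder layer. Of the 43, 16 did by both tests. The feeder rise from day 0 was smaller than the feeder-free rise in all but Car4. That order is largely set by the rule, which asked for a feeder-free rise of at least 2. At day 7, 25 of the 43 were higher than at day 0 in limma (7.4% of all genes were) and 2 were lower (7.49% of all genes). Against day 17, 21 were higher at day 7 (12.6% of all genes) and 3 lower (19% of all genes). Centring the arrays on the median of the genes moved the split of all genes in that comparison from 1823 higher and 2761 lower to 2440 and 2302. Both tests were passed upward by 16 of the 43, or 37.2%, against 2.95% of all genes. These comparisons share the day 7 array. The median difference was 0.65 from day 0 to day 7 and 0.40 from day 17 to day 7, where the medians of all genes were -0.02 and -0.07. The single feeder arrays are assumed to vary like the feeder-free pairs. With days 17 and 32 of each culture as a single late group, so that the feeder arm adds to the spread, 17 were higher than at day 0 and 13 passed both tests. The calls against day 0 lost there were those of Adm, Fosl1, Il17f, Dnase1l3, Adgrf5, Mfsd2a, Pkp2 and Dhrs9, and that of Lgals1 as lower. Against the late group Cmtm5 and Il17f were no longer called higher, nor Adgrf5 and Lgals9 lower.

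The 16 genes with a peak in both arms were Cmtm5, Sbsn, Plac8, Hspb1, Il17f, Car4, Mmp9, Ervfrd-1, Cd82, Dhrs9, Bace2, Arhgef6, Cd24, Lefty1, Satb1 and Adamts7. Of these 12 passed both tests in each of the 13 alternatives that changed the data, the model or the arrays used, and Cmtm5, Il17f, Dhrs9 and Arhgef6 did not. Leaving out either array of a feeder-free pair gives the same fit for the feeder tests. The counts of alternatives here and below thus hold each such fit more than once. With a change of at least 1 also asked for in both, 10 of the 16 remained: Sbsn, Plac8, Hspb1, Car4, Ervfrd-1, Cd82, Cd24, Lefty1, Satb1 and Adamts7. Another 9 were higher at day 7 than at day 0 alone: Adm, Fosl1, Esam, Dnase1l3, Adgrf5, Entpd1, Slc40a1, Mfsd2a and Pkp2. Another 5 were higher than at day 17 alone: C1qtnf6, Tfap2a, Emp3, Des and Fndc3c1. The remaining 13 passed neither test upward. Day 7 was above day 0 on the feeder arrays in 37 members (46% of all genes) and above day 17 in 35 (39.6% of all genes). In 31 it was above both (22% of all genes), by at least 1 in 10 (0.931% of all genes) and by at least 2 in Car4, Hspb1 and Satb1, or 3 (0.186% of all genes). These 31 were also above day 32, so that among the 4 feeder arrays day 7 was the highest in 31 members (17.6% of all genes), day 17 in 6, day 0 in 5 and day 32 in 1.

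**Figure D2:**
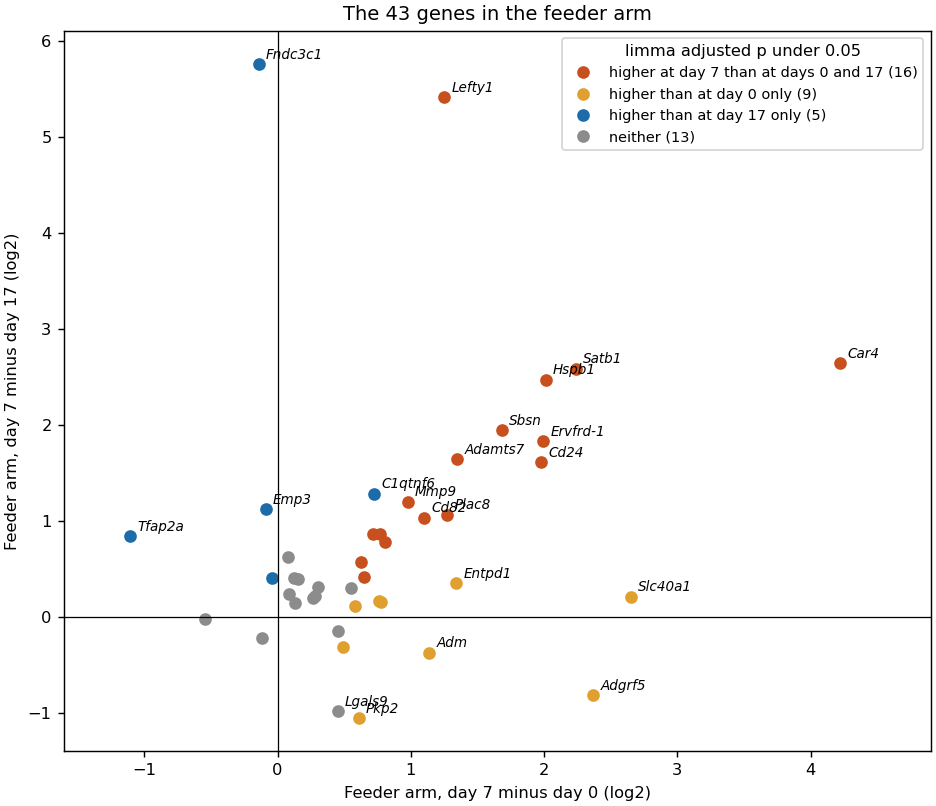
Each point is 1 of the 43 genes in the feeder arm, with day 7 minus day 0 on the horizontal axis and day 7 minus day 17 on the vertical axis, both in log2 and from single arrays. The 16 genes higher at day 7 in both limma comparisons lie above and to the right of the lines at 0, Fndc3c1 and Lefty1 stand apart at 5.76 and 5.41 above day 17, and Adgrf5 and Pkp2 lie below the horizontal line.

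The prolactin genes and Ceacam9 among the members reached their day 7 level in the feeder-free arm and stayed at or near background on feeder arrays. Ervfrd-1 and Plac8 were higher at day 7 in both arms. Other placental prolactins are not covered here: Prl2a1 and Prl7a3 were left out by name, and Prl3d1 shares its probe sets with another symbol. Prl3b1 encodes a placental lactogen, and Prl4a1 and Prl7b1 encode other prolactin relatives of the placenta. Prl3b1 stood at 7.46 at day 0, 9.76 and 10.87 at day 7, 7.36 and 7.25 at day 17, and 7.24 and 7.04 at day 32 without feeder cells. The feeder arrays gave 6.83, 7.12, 6.89 and 7.09 at days 0, 7, 17 and 32, all below the receptor level. Its feeder difference from day 0 to day 7 was 0.28 ± 0.34 (SE, adjusted p = 0.713). Prl4a1 went from 6.26 to 8.45 and 8.95 and Prl7b1 from 5.86 to 7.80 and 8.80 in the feeder-free arm, 1 of the latter values still below the receptor level. On feeder arrays Prl4a1 ranged from 5.95 to 6.35 and Prl7b1 from 5.41 to 5.56. No feeder test of these prolactin genes passed. Ceacam9, a placental member of the carcinoembryonic antigen family, stood at 8.03 at day 0, 11.15 and 11.80 at day 7, 8.10 and 8.10 at day 17, and 8.02 and 8.08 at day 32 without feeder cells. On feeder arrays it lay between 7.84 and 8.11, and its difference from day 0 to day 7 was 0.26 ± 0.23 (SE, adjusted p = 0.559).

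Ervfrd-1, a gene for a retroviral envelope protein of the syncytin kind, did peak in both arms. It stood at 7.91 at day 0, 11.12 and 10.80 at day 7, 8.10 and 8.03 at day 17, and 8.14 and 7.48 at day 32 without feeder cells and at 8.24, 10.24, 8.41 and 8.44 on the feeder arrays of days 0, 7, 17 and 32. The feeder rise from day 0 was 1.995 ± 0.24 (SE, adjusted p = 6.47e-05) and day 7 lay 1.83 ± 0.24 (SE, adjusted p = 4.31e-05) above day 17. Plac8, a small cysteine-rich protein first described in placenta, stood at 8.53 at day 0, 13.67 and 13.57 at day 7, 10.06 and 9.93 at day 17, and 10.71 and 10.37 at day 32 without feeder cells. After the peak it kept a level above its start. With feeder cells it read 9.10, 10.37, 9.31 and 8.98, a rise of 1.27 ± 0.17 (SE, adjusted p = 0.000156) from day 0 and an excess of 1.07 ± 0.17 (SE, adjusted p = 0.000236) over day 17.

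Among transcription factors Satb1 passed both feeder tests, Fosl1 passed the test against day 0, and Tfap2a was lower at feeder day 7 than at day 0. Satb1, which organises chromatin, stood at 10.91 at day 0, 13.75 and 13.88 at day 7, 11.75 and 11.79 at day 17, and 12.15 and 11.85 at day 32 without feeder cells and at 11.08, 13.32, 10.73 and 11.24 on feeder arrays. It was higher at feeder day 7 than at day 0 by 2.24 ± 0.16 (SE, adjusted p = 5.48e-07) and than at day 17 by 2.59 ± 0.16 (SE, adjusted p = 2.88e-08). Fosl1 stood at 8.69 at day 0, 12.10 and 11.87 at day 7, 8.33 and 8.71 at day 17, and 8.43 and 8.88 at day 32 without feeder cells and at 8.71, 9.48, 9.33 and 8.87 on feeder arrays. Its feeder rise from day 0 was 0.78 ± 0.22 (SE, adjusted p = 0.0297), a call that held in 8 of 13 alternatives, and its excess over day 17 was 0.15 ± 0.22 (SE, adjusted p = 0.687). Tfap2a, an AP-2 factor of trophoblast and surface ectoderm, stood at 9.23 at day 0, 11.63 and 11.96 at day 7, 8.40 and 8.26 at day 17, and 7.97 and 8.03 at day 32 without feeder cells. On feeder arrays it fell in steps, with 9.71, 8.61, 7.76 and 7.79. Its feeder change from day 0 to day 7 was -1.11 ± 0.17 (SE, adjusted p = 0.00043), and day 7 lay 0.84 ± 0.17 above day 17 (adjusted p = 0.00138). Leaving out single feeder-free arrays gave Fosl1 an adjusted p of 0.000372 to 0.0733, and the call was lost when either day 7 array was left out.

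Since an AP-1 subunit is a member, the promoters of members were searched for its motif. RefSeq promoters (build GRCr8, 250 bases before to 50 after the start of the gene) were found for 33 of the 43 genes, Sbsn having more than 1 entry. The letters TGANTCA, which read the same on both strands, were in the window of 6 of these genes, or 18.2%, against 7.33% of all 33469 promoters. The 6 were Apbb1ip, C1qtnf6, Dhrs9, Lgals9, Prl3b1 and Sbsn. The 4 with a match before the start are shown over these 250 bases, with the motif in capitals.
Sbsn, chr1:95128731-95128980, plus strand: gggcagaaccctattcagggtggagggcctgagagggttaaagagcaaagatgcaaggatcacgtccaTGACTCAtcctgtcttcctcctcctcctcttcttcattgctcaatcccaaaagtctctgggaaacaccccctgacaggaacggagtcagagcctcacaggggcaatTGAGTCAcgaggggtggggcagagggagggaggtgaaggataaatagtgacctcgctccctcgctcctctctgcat
Dhrs9, chr3:74555435-74555684, plus strand: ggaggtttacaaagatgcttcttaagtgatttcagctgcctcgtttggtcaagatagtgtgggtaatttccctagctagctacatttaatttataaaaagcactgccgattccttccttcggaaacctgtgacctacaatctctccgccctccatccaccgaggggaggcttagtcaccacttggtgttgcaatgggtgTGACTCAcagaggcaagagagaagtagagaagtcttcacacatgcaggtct
C1qtnf6, chr7:111964865-111965114, minus strand: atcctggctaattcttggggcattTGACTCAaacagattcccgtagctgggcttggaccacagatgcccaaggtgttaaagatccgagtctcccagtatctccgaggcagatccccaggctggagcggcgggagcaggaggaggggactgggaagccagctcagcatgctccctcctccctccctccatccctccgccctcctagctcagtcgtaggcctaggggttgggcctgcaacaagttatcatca
Lgals9, chr10:64428071-64428320, minus strand: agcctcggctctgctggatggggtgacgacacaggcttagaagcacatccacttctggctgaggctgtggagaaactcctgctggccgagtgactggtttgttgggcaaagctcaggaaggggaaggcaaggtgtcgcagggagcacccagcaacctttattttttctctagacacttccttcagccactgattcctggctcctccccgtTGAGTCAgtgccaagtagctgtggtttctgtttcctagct
Counted from the start of the gene, the motif began at -182 and -76 in Sbsn, at -51 in Dhrs9, at -226 in C1qtnf6 and at -40 in Lgals9. A match describes the letters and does not show binding.

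Of the other motifs searched on both strands, none of which contains another, the AP-2 motif GCCNNNGGC was in 9 of the 33 members' windows (27.3%) and in 15.1% of all promoters. TATAAA was in 9 (27.3%) against 14.2%, Prl3b1, Prl7b1, Ceacam9 and Ervfrd-1 among them. The TEAD motif GGAATG was in 6 (18.2%) against 14.2%, the GATA motif AGATAA in 3 (9.09%) against 11.6%, the E box CACGTG in 1 (3.03%) against 6.42%, and the CRE TGACGTCA in 1 (3.03%) against 1.83%. Shares of a few genes out of 33 are imprecise.

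Secreted factors differed among themselves. Sbsn encodes suprabasin, a secreted protein of differentiating epidermis, and stood at 9.20 at day 0, 12.92 and 12.98 at day 7, 8.94 and 9.12 at day 17, and 8.87 and 8.92 at day 32 without feeder cells. Feeder values were 9.15, 10.84, 8.89 and 8.99, a rise of 1.68 ± 0.15 (SE, adjusted p = 2.82e-06) from day 0 and an excess of 1.95 ± 0.15 (SE, adjusted p = 1.56e-07) over day 17. Its day 7 values were thus the highest of their arm in both cultures. Adm encodes adrenomedullin, a peptide that widens blood vessels, and stood at 9.77 at day 0, 13.17 and 13.35 at day 7, 9.50 and 9.58 at day 17, and 9.17 and 9.18 at day 32 without feeder cells. On feeder arrays it read 9.59, 10.73, 11.10 and 10.03, with the top at day 17. The rise to feeder day 7 was 1.14 ± 0.15 (SE, adjusted p = 0.000103), and the value then moved by -1.07 ± 0.15 (SE, adjusted p = 0.00221) from day 17 to day 32.

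Lefty1, an antagonist of Nodal signalling, began far higher in the feeder arm. It stood at 9.51 at day 0, 11.46 and 11.76 at day 7, 8.71 and 8.43 at day 17, and 8.44 and 8.72 at day 32 without feeder cells and at 13.32, 14.57, 9.15 and 8.78 on feeder arrays, so that the feeder day 0 array exceeded even the feeder-free day 7 arrays. In the feeder arm it rose by 1.25 ± 0.19 (SE, adjusted p = 0.000488) to day 7 and lay 5.41 ± 0.19 (SE, adjusted p = 2.89e-10) above day 17. The other secreted members had smaller feeder changes. Il17f, a cytokine, stood at 10.80 and 10.77 at feeder-free day 7, but all its feeder values lay below the receptor level, from 7.07 to 7.93. Within that range its feeder day 7 array was 0.72 ± 0.18 (SE, adjusted p = 0.0145) above day 0 and 0.87 ± 0.18 (SE, adjusted p = 0.00174) above day 17. C1qtnf6, a relative of complement C1q, had a feeder difference from day 0 of 0.73 ± 0.23 (SE, adjusted p = 0.0535) and from day 17 of 1.28 ± 0.23 (SE, adjusted p = 0.000665). Sema3e, a guidance factor, and Crispld2 passed neither feeder test, with differences from day 0 of 0.45 and 0.12. Cmtm5, a chemokine-like factor with the highest peak of all without feeder cells, stood at 8.33 at day 0, 12.21 and 12.10 at day 7, 8.41 and 8.26 at day 17, and 8.17 and 8.29 at day 32. In the feeder arm it read 8.11, 8.76, 8.34 and 8.50, and its excess over day 17, 0.42 ± 0.15 (SE, adjusted p = 0.0486), was called in 5 of 13 alternatives. Leaving out single arrays gave it an adjusted p of 0.0471 to 0.059, above 0.05 when either array of day 17 or of day 32 was left out. C1qtnf6 against day 0 ranged from 0.000984 to 0.0935 and was called when any 1 of these 4 arrays was left out, and Sema3e against day 0 ranged from 0.0451 to 0.0781 and was called when either day 7 array was left out. Adm against day 17 ranged from 0.0423 to 0.0953 and was then called lower at day 7, also when either day 7 array was left out.

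Of the enzymes Car4 was the only member apart from Hspb1, Fndc3c1, Lefty1 and Lgals1 whose feeder day 7 value exceeded the feeder-free day 7 mean. Car4, a carbonic anhydrase anchored to the outer membrane, stood at 8.89 at day 0, 12.13 and 12.18 at day 7, 9.20 and 9.04 at day 17, and 8.995 and 9.09 at day 32 without feeder cells and at 8.90, 13.13, 10.48 and 9.91 on feeder arrays. Its feeder rise of 4.22 ± 0.15 (SE, adjusted p = 3.27e-09) was the largest of the 43, and day 7 lay 2.64 ± 0.15 (SE, adjusted p = 8.51e-09) above day 17. Mmp9, a gelatinase that degrades basement membrane, stood at 8.01 at day 0, 10.86 and 10.99 at day 7, 7.80 and 8.01 at day 17, and 7.97 and 7.94 at day 32 without feeder cells and at 8.08, 9.06, 7.86 and 8.22 on feeder arrays. The feeder rise was 0.98 ± 0.15 (SE, adjusted p = 0.000517), and day 7 lay 1.20 ± 0.15 above day 17. Adamts7, a matrix metalloprotease, was already at 11.06 and 10.45 at day 0 without and with feeder cells. It reached 12.99 and 13.16 at feeder-free and 11.80 at feeder day 7, a feeder rise of 1.35 ± 0.16 (SE, adjusted p = 3.84e-05). With the arrays centred on the median of the genes it no longer met the rule.

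Of the other enzymes Entpd1, Dhrs9, Bace2 and Dnase1l3 were higher at feeder day 7 than at day 0, and Csgalnact1 and Plcd4 were not called. Entpd1, which breaks down extracellular ATP, stood at 8.80 at day 0, 12.14 and 12.21 at day 7, 9.24 and 9.22 at day 17, and 9.002 and 8.91 at day 32 without feeder cells and at 8.56, 9.90, 9.55 and 8.83 on feeder arrays. It rose by 1.34 ± 0.14 (SE, adjusted p = 1.68e-05) to feeder day 7, and its excess over feeder day 17 of 0.35 did not pass (adjusted p = 0.076). Dhrs9, a dehydrogenase of retinol and steroids, and Bace2, an aspartyl protease, passed both feeder tests with rises of 0.81 ± 0.14 and 0.63 ± 0.14. Dnase1l3, a secreted DNase, rose by 0.58 ± 0.17 (SE, adjusted p = 0.0353) and lay only 0.11 above day 17. Csgalnact1, which starts chondroitin sulfate chains, had a feeder-free rise of 4.44, yet its feeder values stayed between 7.69 and 8.09, none above the receptor level. Plcd4, a phospholipase C, passed neither feeder test. Its adjusted p against day 0 was 0.229, and 0.0261 to 0.149 without single arrays, being called when any 1 of the 4 arrays of days 7 and 17 was left out.

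Of the transporters Slc40a1 and Mfsd2a were higher at feeder day 7 than at day 0, and neither differed by the test from day 17. Slc40a1, the iron exporter ferroportin, stood at 7.96 at day 0, 11.84 and 11.96 at day 7, 9.21 and 9.34 at day 17, and 9.35 and 9.22 at day 32 without feeder cells. Its feeder levels were 8.76, 11.41, 11.20 and 10.43. It rose by 2.65 ± 0.15 (SE, adjusted p = 5.24e-08) to feeder day 7, lay 0.21 ± 0.15 (SE, adjusted p = 0.338) above day 17, and fell by 0.77 from day 17 to day 32 (adjusted p = 0.0187). Mfsd2a, a lysophospholipid transporter, stood at 8.53 at day 0, 11.87 and 11.995 at day 7, 9.50 and 9.27 at day 17, and 9.49 and 9.43 at day 32 without feeder cells. The 4 feeder levels were 9.49, 9.98, 10.30 and 10.35, with a rise to day 7 of 0.49 ± 0.16 (SE, adjusted p = 0.0491) that was called in 7 of 13 alternatives. Leaving out single arrays gave an adjusted p of 0.0343 to 0.0565, with the call lost when any 1 of the 4 arrays of days 7 and 32 was left out. Atp8b1, a flippase that moves phospholipids across the membrane, reached 11.10 and 11.13 at feeder-free day 7. It lay below the receptor level on all feeder arrays.

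Among cell surface and adhesion genes was Adgrf5, with the largest feeder-free rise of the set. Adgrf5, an adhesion G protein-coupled receptor, stood at 7.37 at day 0, 13.56 and 13.75 at day 7, 10.68 and 10.72 at day 17, and 9.19 and 9.18 at day 32 without feeder cells. On feeder arrays it read 7.08, 9.45, 10.27 and 9.72. The feeder rise from day 0 was 2.37 ± 0.15 (SE, adjusted p = 1.15e-07), and the feeder difference of day 7 from day 17 was -0.82 ± 0.15 (SE, adjusted p = 0.000571). Pkp2, a plakophilin of desmosomes, stood at 8.23 at day 0, 12.46 and 12.48 at day 7, 9.99 and 10.10 at day 17, and 10.77 and 10.46 at day 32 without feeder cells and at 8.72, 9.32, 10.38 and 10.26 on feeder arrays. Both genes thus had their top at day 7 in the feeder-free arm and at day 17 in the feeder arm, and the feeder difference of day 7 from day 17 in Pkp2 was -1.05 ± 0.16 (SE, adjusted p = 0.000171). Lgals9, a galectin, also was lower at feeder day 7, with a difference from day 17 of -0.98 ± 0.16 (SE, adjusted p = 0.000257). It is the member measured by more than 1 probe set: the brighter had a feeder-free peak of 2.84 and the other of 0.45, so its place in the set rests on 1 probe set. Its adjusted p against day 0 was 0.079, and 0.0493 to 0.0838 without single arrays, called when either day 7 array was left out.

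Cd24, a small glycoprotein anchored to the membrane, was the brightest member. It stood at 13.003 at day 0, 15.09 and 15.17 at day 7, 11.17 and 11.34 at day 17, and 10.72 and 10.35 at day 32 without feeder cells and at 11.44, 13.42, 11.81 and 11.74 on feeder arrays. It peaked in both arms, with a feeder rise of 1.98 ± 0.18 (SE, adjusted p = 3.83e-06) and an excess over day 17 of 1.61 ± 0.18 (SE, adjusted p = 7.03e-06). Cd82, a tetraspanin, did so as well, with 9.42 at day 0, 11.99 and 11.86 at day 7, 9.21 and 9.35 at day 17, and 9.63 and 9.56 at day 32 without feeder cells and 9.56, 10.66, 9.63 and 9.07 on feeder arrays. Its feeder rise was 1.10 ± 0.15 (SE, adjusted p = 0.000149). Esam, an adhesion molecule of endothelial junctions, stood at 8.01 at day 0, 11.51 and 11.46 at day 7, 8.22 and 8.19 at day 17, and 8.13 and 8.15 at day 32 without feeder cells. The feeder arrays gave 8.27, 9.03, 8.87 and 8.64, a rise of 0.76 ± 0.14 (SE, adjusted p = 0.00162) that lay 0.16 above day 17 (adjusted p = 0.438). Of 7 endothelial markers the mean was 8.88 at feeder-free day 0, 8.65 and 8.72 at day 7 and 8.77 and 8.76 at day 17. The 7 markers did not move alike. From feeder-free day 0 to day 7 Tek differed by 1.36, Kdr by 0.70 and Sox18 by 0.13. Emcn differed by -0.02, Cldn5 by -0.15, Pecam1 by -1.40 and Tie1 by -2.00. Cdh5, left out of the set by name, is not among the 7.

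Hspb1, a small heat shock protein that binds actin, was the member of the cytoskeletal and intracellular genes with a strong peak in both arms. It stood at 8.60 at day 0, 11.69 and 11.98 at day 7, 8.57 and 8.53 at day 17, and 9.01 and 9.10 at day 32 without feeder cells and at 10.41, 12.42, 9.95 and 9.61 on feeder arrays. The feeder rise was 2.01 ± 0.16 (SE, adjusted p = 1.26e-06), and day 7 lay 2.47 ± 0.16 (SE, adjusted p = 3.91e-08) above day 17. Arhgef6, an exchange factor for Rac and Cdc42, passed both feeder tests with a rise of 0.77 ± 0.17 (SE, adjusted p = 0.00755). Des, the muscle intermediate filament desmin, stood at 8.84 at day 0, 11.06 and 11.17 at day 7, 8.87 and 8.93 at day 17, and 8.66 and 8.59 at day 32 without feeder cells. With feeder cells it read 9.16, 9.12, 8.72 and 8.56 and differed by -0.04 ± 0.14 (SE, adjusted p = 0.936) from day 0 to day 7. Its excess over feeder day 17 was 0.40 ± 0.14 (SE, adjusted p = 0.0451), and 0.0331 to 0.0641 was the range of the adjusted p without single arrays, the call being lost when any 1 of the 4 arrays of days 17 and 32 was left out. Apbb1ip, an adaptor between Rap1 and integrins, and Adap2, which acts on Arf GTPases, passed neither feeder test, with differences from day 0 of 0.08 each. Apbb1ip lay 0.62 ± 0.25 (SE, adjusted p = 0.0729) above day 17. It was called whichever feeder-free pair lost an array, the fits without either array of a pair being the same.

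**Figure D3:**
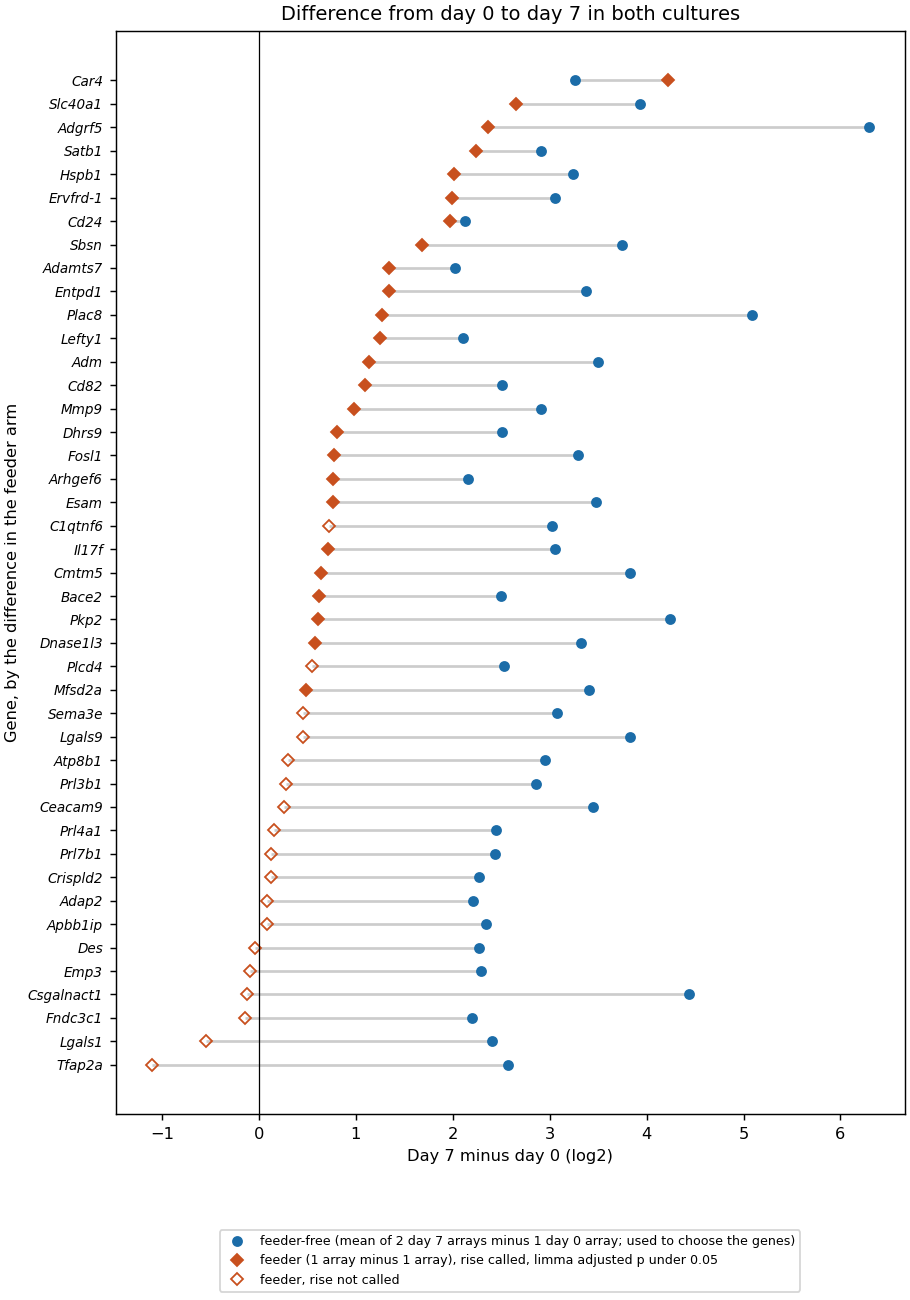
Day 7 minus day 0 (log2) for each of the 43 genes, with circles for the feeder-free arm (mean of 2 arrays minus 1 array, used to choose the genes) and diamonds for the feeder arm (1 array minus 1 array), filled where limma called a rise. The feeder diamond lies left of the circle in all genes but Car4, and 6 diamonds lie below 0. The choice of genes by their feeder-free rise favours this order.

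For 5 members the arms already differed at day 0 by at least 1 in favour of feeder cells: Hspb1, Emp3, Fndc3c1, Lefty1 and Lgals1. Over all genes 3.93% did so. The reverse held for Cd24, 1 member (3.41% of all genes). Lgals1, a galectin of connective tissue, stood at 10.53 at day 0, 12.89 and 12.96 at day 7, 10.97 and 10.83 at day 17, and 10.72 and 10.77 at day 32 without feeder cells. Feeder values were 14.05, 13.51, 13.53 and 11.94. Its feeder difference from day 0 to day 7 was -0.55 ± 0.14 (SE, adjusted p = 0.0195), and that from day 17 to day 32 was -1.59 ± 0.14 (SE, adjusted p = 0.000135). Emp3, a membrane protein of the peripheral myelin family, read 9.80, 9.71, 8.59 and 8.08 on feeder arrays and lay 1.12 ± 0.16 (SE, adjusted p = 9.83e-05) above day 17 at day 7. Fndc3c1, with fibronectin type III domains, read 12.07, 11.93, 6.17 and 6.38 on feeder arrays against 8.16 at day 0, 10.03 and 10.68 at day 7, 6.67 and 6.34 at day 17, and 6.27 and 6.57 at day 32 without feeder cells. It was high from the start in the feeder arm and fell after day 7, by 5.76 ± 0.26 to day 17 (adjusted p = 1.24e-09).

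Markers of fibroblasts moved beside these genes. The mean of 8 such markers was 9.11, 8.31, 7.53 and 7.55 on the feeder arrays of days 0, 7, 17 and 32, and 7.48 to 7.55 on all feeder-free arrays. The feeder fibroblasts were from mouse and the arrays are for rat. How well rat probes read mouse transcripts was not examined, so these levels do not measure fibroblast content. Fap, Dcn and Lum lay below the receptor level on every array. Of the 8, 5 lay above it on the feeder arrays of days 0 and 7, and 3 or 4 on every other array, feeder-free ones included. At day 17 the marker mean was 7.53 on the feeder array and 7.53 and 7.55 on the feeder-free arrays. Lgals1 then read 13.53 on the feeder array and 10.97 and 10.83 without feeder cells. The part of fibroblasts in the feeder values of Lgals1, Emp3 and Fndc3c1 was not tested.

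**Figure D4:**
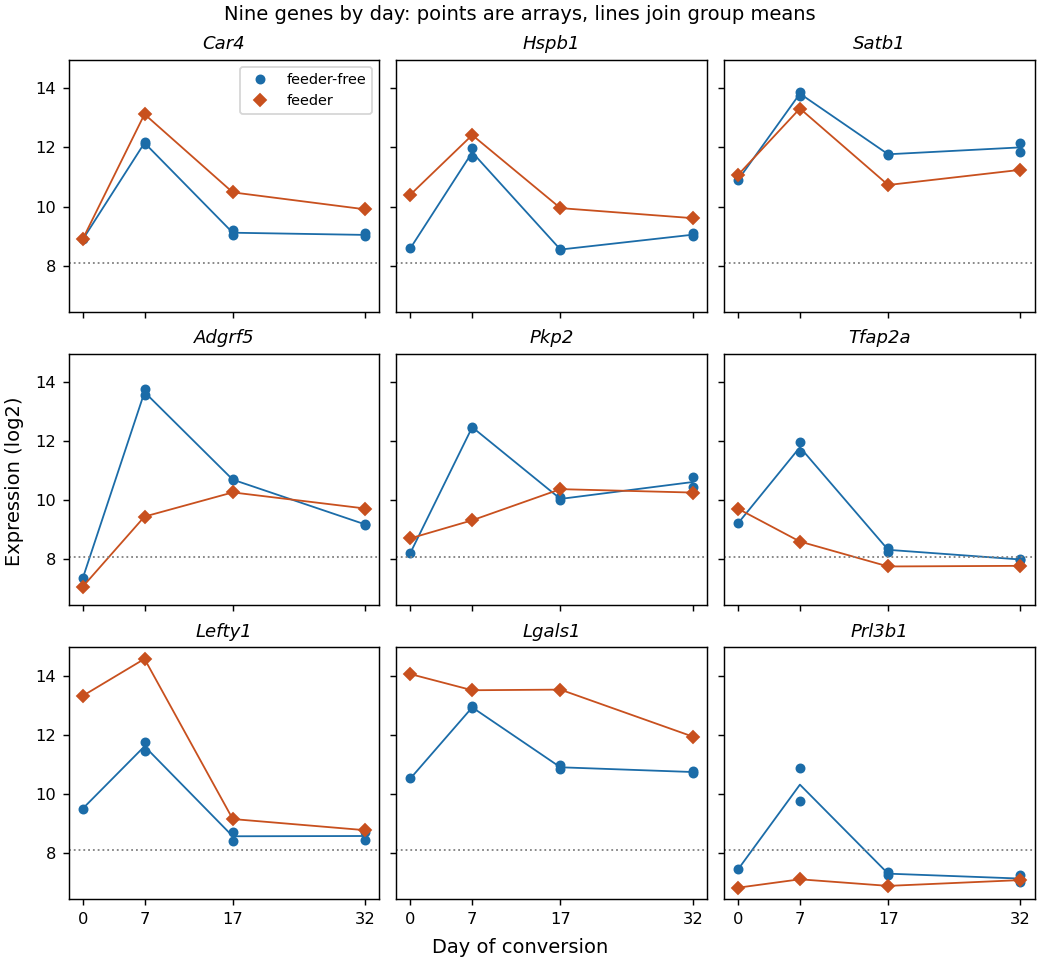
Log2 expression by day of conversion for 9 of the genes, with each array as a point (circles feeder-free, diamonds feeder) and lines joining group means. The dotted line marks 8.10, below which 95% of receptor gene values lie. Car4, Hspb1 and Satb1 peak at day 7 in both arms, Adgrf5 and Pkp2 at day 17 in the feeder arm, and Prl3b1 stays below the dotted line on feeder arrays.

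What became of the genes after day 17 was not used to choose them. In the feeder-free arm the day 32 mean lay within 0.5 of the day 17 mean in 36 of the 43, or 83.7%, against 95.7% of all genes. It lay within 0.5 of day 0 in 28, for which the share over all genes was not computed. The exceptions from day 17 to day 32 were Plac8, Hspb1 and Pkp2, higher by 0.54, 0.50 and 0.57, and Adgrf5, Lgals9, Csgalnact1 and Cd24, lower by 1.51, 0.69, 0.83 and 0.72. At day 32, 5 members lay at least 1 above day 0: Pkp2 by 2.39, Plac8 by 2.01, Adgrf5 by 1.82, Slc40a1 by 1.33 and Satb1 by 1.10, against 6.98% of all genes. Another 4 lay at least 1 below: Cd24 by 2.47, Fndc3c1 by 1.73, Tfap2a by 1.23 and Adamts7 by 1.00, against 6.85% of all genes. These are differences of means with no test, since days 0 and 17 chose the genes.

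In the feeder arm 27 of the 43 were higher at day 7 than at day 32 (12.8% of all genes) and 1, Pkp2, was lower (19.5% of all genes). From day 17 to day 32, 6 fell (1.38% of all genes) and none rose (0.165% of all genes). The 6 were Lgals1, Adm, Slc40a1, Dhrs9, Entpd1 and Lgals9. The count was 3 with the arrays centred on the median of the genes. Whether the course differed between the arms was not tested, since the feeder-free values chose the genes.

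Trophoblast markers differed among themselves at day 7. The mean of 9 such markers was 9.40 at feeder-free day 0, 11.08 and 11.16 at day 7, 8.93 and 8.92 at day 17 and 9.03 on both arrays of day 32. In the feeder arm it was 9.38, 9.94, 8.97 and 9.02. All 9 lay above the receptor level at feeder-free day 7 and 8 of 9 at feeder day 7, where Gcm1 did not. On the arrays of the other days 7 to 9 of the 9 did, so this count does not set day 7 apart. Elf5, Gata3, Hand1 and Plac1 passed the threshold of the rule and were left out by name, so their feeder-free values are part of the same choice. Of the other markers, the feeder-free difference from day 0 to day 7 was 1.31 for Krt7, 1.12 for Ascl2, 0.04 for Gcm1, -0.14 for Tfap2c and -1.43 for Cdx2. On feeder arrays 4 of the 9, Elf5, Gata3, Hand1 and Plac1, were higher at day 7 than at day 0 and Cdx2 was lower, with a difference of -3.64 (adjusted p = 3.78e-09). Against feeder day 17, 5 of the 9 were higher at day 7, Cdx2 and Tfap2c among them, and 0 were lower. As lists, hypoblast and parietal endoderm markers had no top at day 7: the mean of 5 parietal endoderm markers was 9.91 at feeder-free day 0, 13.76 and 13.86 at day 7 and 14.30 and 14.35 at day 17. The part of any cell type in the day 7 values was not tested.

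Wider gene lists around the members, written with earlier results known, gave calls in both directions. Over all genes 7.4% were higher and 7.49% lower at feeder day 7 than at day 0. Against day 17 these shares were 12.6% and 19%. Of 25 genes for placental hormones and giant cells, 4 are members and 8 lay at least 1 above days 0 and 17 at feeder-free day 7 (1.08% of all genes did, in the contrast that chose the members). In the feeder arm 2 of the 25 were higher at day 7 than at day 0 and 0 were lower, while 0 were higher and 2 lower than at day 17. The list medians were 0.07 and -0.04. Rhox9, a homeobox gene of placenta and germ cells, was in both counts, with 2.05 above day 0 and 1.57 below day 17. Of 13 immediate early genes 8 were higher at feeder day 7 than at day 0 and 1 was lower, and 3 were higher and 4 lower than at day 17. Egr1 was 2.78 above day 0 and 1.55 above day 17. The other AP-1 genes of the list did not move alike. From day 0 to feeder day 7 Junb rose by 1.56, Fos by 1.35, Jun by 1.21 and Jund by 0.61, Atf3 fell by 1.42, and Fosl2 differed by 0.05 (adjusted p = 0.895). Against feeder day 17 Jun, Jund, Fosl2 and Atf3 were lower at day 7, with differences of -0.90, -0.50, -0.50 and -3.56, while Junb at 0.42 (adjusted p = 0.0552) and Fos at 0.0029 (adjusted p = 0.991) passed no test.

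Of 17 junction genes 11 were higher at feeder day 7 than at day 0 and 1 was lower, and 8 were higher and 5 lower than at day 17. The 6 higher in both were Cd24, Cldn4, Cldn7, Gjb5, Epcam and Cdh1. Cdh1, or E-cadherin, was 0.68 above day 0 and 0.99 above day 17. Of 15 trophoblast regulators 5 were higher and 3 lower than at day 0, and 6 higher and 1 lower than at day 17. Ets2 was higher in both, by 1.16 and 1.42. Of 18 metalloproteinases and inhibitors 2 were higher and 3 lower than at day 0, and 6 higher and 5 lower than at day 17. Mmp9 and Timp4 were the ones higher in both. Of 19 endothelial genes 3 were higher and 1 lower than at day 0, and 6 higher and 3 lower than at day 17. Of 18 TGF-beta family ligands and antagonists 5 were higher and 1 lower than at day 0, and 7 higher and 4 lower than at day 17. Of 329 solute carrier genes 32 were higher and 25 lower than at day 0, and 50 higher and 86 lower than at day 17. Of 77 adhesion and orphan receptors 6 were higher and 4 lower than at day 0, and 14 higher and 8 lower than at day 17. Beside these counts stand the shares over all genes, 7.4% higher and 7.49% lower than at day 0. Against day 17 they were 12.6% and 19%, and 2.95% of all genes were higher in both. Whether any list differs from these shares was not tested. The lists with no member among the 43 were those of leukocyte, EGF family, cytokine, lipid, germline, actin, stress, fibroblast, interferon, mesoderm and growth factor genes.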

How the data were processed

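Total RNA was biotin-labelled and hybridised to Rat Gene 1.0 ST arrays of Affymetrix, 11 in all, per the labels' protocols. The values are log2 expression values that the authors deposited as a table of 29214 probe sets, computed by RMA (no version given) per the submitters' processing notes. RMA draws low values together. Scanner files were not used here, so detection per probe could not be examined. The platform annotation paired 15310 probe sets with 1 symbol, 323 with several and 13581 with none. Gene identifiers matched RefSeq (GRCr8) in 15279 cases, with 0 symbols updated. The brightest row stood for each of 527 genes with several, leaving 14506 genes.

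limma 3.58.1 in R 4.3.3 (lmFit, eBayes) was fitted to all 11 arrays with a mean for each of 8 groups. The 3 residual degrees of freedom come from the feeder-free pairs alone. Leaving out either array of a pair takes that pair out of the spread, so both fits are the same for the feeder tests. P values were adjusted by Benjamini-Hochberg over all genes and called under 0.05. The members, gene lists and motifs were chosen with earlier results of these data known. The rule for named genes took the 12 members with the largest peak in each arm, the 6 with the smallest feeder peak, the 6 highest at day 32 relative to day 17, members in a gene list, and the 3 genes on each side of the threshold. Other members, and list genes that are no member, were named after their values were seen. Simulated arrays with known changes were used to check the fit. Tried as alternatives were leaving out the 25% dimmest genes, averaging a gene's rows, a further quantile normalization, centring, eBayes with trend and robust, a replicate block, days 17 and 32 as a single group, a change of at least 1, other thresholds of the rule, and leaving out each replicate. Figures were drawn with matplotlib 3.10.9.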

Additional observations from a re-analysis of the deposited data

Results flagged for a closer look

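In 6 members the feeder arm moved against the feeder-free rise from day 0 to day 7, a difference between the cultures that was not tested. The feeder-free rise was set by the rule. On feeder arrays day 7 lay above day 0 in 86% of the members and in 46% of all genes. Members thus moved against a rise less often than all genes did. The feeder differences were -1.11 for Tfap2a, -0.55 for Lgals1, -0.14 for Fndc3c1, -0.12 for Csgalnact1, -0.09 for Emp3 and -0.04 for Des. In limma Tfap2a and Lgals1 were lower at feeder day 7, and the other 4 passed in neither direction.

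In 8 members the feeder day 7 array lay below that of day 17 where the feeder-free day 7 arrays lay above day 17, also untested between the cultures. The feeder-free excess was again set by the rule. On feeder arrays day 7 lay above day 17 in 81.4% of the members and in 39.6% of all genes. The feeder differences, day 7 minus day 17, were -1.05 for Pkp2, -0.98 for Lgals9, -0.82 for Adgrf5, -0.37 for Adm, -0.32 for Mfsd2a, -0.22 for Csgalnact1, -0.15 for Sema3e and -0.02 for Lgals1. In limma Pkp2, Lgals9 and Adgrf5 were lower at feeder day 7. No group held the 4 arrays needed to look for a single array far from the others.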

How the results depend on the processing

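The number of members was 83 at a threshold of 1.5 log2 and 11 at 3 log2. Leaving out single feeder-free arrays of days 7 and 17 gave 37 to 45 members, the lowest without the second day 7 array, when Adamts7, Apbb1ip, Fndc3c1, Lefty1, Lgals1, Prl7b1 and Satb1 dropped out. With a change of at least 1 also asked for, 14 members were higher at feeder day 7 than at day 0, 16 than at day 32 and 10 in both tests, and 2 fell from day 17 to day 32. After centring, with no such filter, 3 fell from day 17 to day 32, where 6 did before it. Without single feeder-free arrays the counts were 25 to 27 (day 0), 20 to 22 (day 17), 25 to 26 (day 32), 16 (both tests) and 5 to 7 (day 17 to day 32). Of 1106 values of single genes under alternatives 1027 kept their direction and their side of the threshold, 38 lost the call, 36 gained one and 5 turned. Leaving out feeder-free arrays, eBayes with trend and robust and the replicate block cannot change a feeder difference. The single late group cannot change one from day 0. The direction was fixed in advance there and only the call could move, so the 1027 do not measure stability. Those that turned were all against feeder day 17, for genes that passed no test there: with days 17 and 32 as a single group Adm was 0.16, Sema3e 0.0197 and Lgals1 0.77, and Lgals1 was 0.13 after quantile normalization and 0.10 after centring. Centring moved the median of all genes by 0.12 in the comparison of days 7 and 17. The split of all genes there, 1823 higher and 2761 lower at day 7, became 2440 and 2302. The 3 correlations of same-numbered replicates' deviations between days ran from -0.20 to 0.03, so the numbers did not pair the arrays. With the replicate block 27, 20, 25 and 16 members were higher than at day 0, day 17, day 32 and in both tests, and 6 fell from day 17 to day 32. The dim genes limit the set. In 6 members, Il17f, Prl3b1, Plcd4, Prl7b1, Apbb1ip and Prl4a1, only the feeder-free day 7 mean lay above the receptor level. The first day 7 array of Prl7b1, at 7.80, lay below it.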

Other observations

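Probe sets that the annotation does not tie to a single symbol, and which no comparison above used, were put to the same feeder-free rule. Of the 14506 named genes 61 passed its threshold before exclusions (0.421%). Of 13581 probe sets with no symbol 14 passed the feeder-free threshold of 2, the highest by 6.32, and of 323 with several symbols 3 did, the highest by 7.71. The latter exceeds the highest peak among the 43 named genes, 3.82. It belongs to a probe set annotated to Prl3d1 and Rpl-1, and another with the same symbols peaked by 7.59. On these probe sets feeder day 7 lay 1.24 and 1.26 above day 0 and 1.01 and 1.24 above day 17, with no test. Their feeder day 7 levels were 7.85 and 7.27. The remaining probe set with several symbols, Hsd3b3 and Hsd3b1, peaked by 2.32, with feeder differences of 0.28 and 0.10. Across the 43 genes the rises from day 0 to day 7 in the arms correlated at 0.33 (Pearson's r, n = 43 genes, which share the same few arrays and are not independent replicates).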
